A study of Mus musculus with 33 samples.

Results

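Car4, Krt79, Rab44, F7, Spp1, Ffar4, Atp6v0d2, Bcar3, Hr and Igflr1 are 10 genes, of 24421 in the count files, whose transcripts are abundant in alveolar macrophages (AMs), the resident macs of the lung airspaces. They were chosen by their measured levels in these same samples, either because they were restricted to AMs or because they were strongly lower in CD11b+ AMs, so those differences are given below as descriptions without a test. Bulk RNA-seq of sorted cells covered 33 samples in 6 groups, with 5 samples in each AM group and 6 in each Kupffer cell (KC, the resident macs of the liver) group. CRE- AMs and CRE- KCs came from Zeb2 fl/fl mice, in which the gene for the transcription factor ZEB2 is flanked by loxP sites but intact. CRE+ AMs, sorted into CD11b- and CD11b+ AMs, carried Itgax-cre x Zeb2 fl/fl, whereas CRE+ KCs, sorted into Tim4+ and Tim4- KCs, carried Clec4f-cre x Zeb2 fl/fl. The paper found that some AMs and KCs of these CRE+ mice had kept a copy of Zeb2. The CD11b and Tim4 sorts were not made on that basis, and the share of such cells in each sample was not measured. All mice carried the floxed allele on a C57Bl/6 background, were of both sexes and were in general aged 6 to 8 weeks. Itgax-cre is active in CD11c-expressing cells besides AMs, and the CRE- groups were not divided by CD11b or Tim4.

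Sequencing depth, as reads assigned to genes, was 9837240 to 24332306 per sample (median 20683608), and was lowest in Tim4- KC replicate 1. Zeb2 itself was at 195 ± 17.1 CPM (mean ± SD, n = 5) in CRE- AMs, 105 ± 11.8 CPM in CD11b- AMs and 62.5 ± 7.80 CPM in CD11b+ AMs, where CPM is a gene's read count relative to the library's total after TMM scaling. In KCs it was at 282 ± 37.6 CPM (n = 6) in the CRE- group, 174 ± 25.9 in Tim4+ KCs and 169 ± 15.4 in Tim4- KCs. Zeb2 reads were counted over the whole gene, so transcripts that carry the deletion still contribute to these levels, as do those of any cells that kept a copy. Of 25 other genes known from AMs, all had a count in every AM group, and Chil3, Cd9 and Krt19 averaged 24410, 6475 and 1083 CPM in CRE- AMs against 0.25, 23.4 and 0.38 CPM in CRE- KCs. Of 17 KC genes, all had a count in CRE- and in CD11b+ AMs, whereas Clec4f and Vsig4, which define KCs, had none in CD11b- AMs. The summed level of the 17 genes was 186 to 222 CPM in CRE- AMs against 39920 to 43520 CPM in CRE- KCs. It was higher in CRE+ AMs, at 309.5 to 394.5 CPM in CD11b- AMs and 460 to 619 CPM in CD11b+ AMs. These markers matched the labelled tissues.

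AMs take up and break down surfactant, the lipid film that keeps the airspaces open, and their program depends on GM-CSF signalling and the nuclear receptor PPARG. The 10 genes belong to no single pathway. Car4 encodes a membrane-anchored carbonic anhydrase, Atp6v0d2 a d subunit of the vacuolar proton pump that acidifies lysosomes, and Spp1 the secreted phosphoprotein osteopontin, which integrins and CD44 recognise. F7 encodes coagulation factor VII, Ffar4 a receptor for long-chain fatty acids, and Krt79 a type II keratin. Rab44 is a large member of the Rab GTPase family, Bcar3 an adaptor protein that binds p130Cas, Hr the corepressor hairless that partners nuclear receptors, and Igflr1 a cell-surface receptor related to the TNF receptor family. ZEB2 binds DNA through its zinc fingers at CACCT sequences, including the E-box form CACCTG, and is best known as a repressor.

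The 250 bases before the annotated start of 5 of these genes are shown, because 4 of them (Krt79, F7, Ffar4 and Igflr1) were lower and 1 (Car4) was higher in CD11b+ AMs. Capitals mark CACCT or its reverse complement AGGTG, searched on both strands. Sequences are from RefSeq on GRCm38.p6 and run 5′ to 3′ on the strand of the gene, which is the minus strand for Krt79 and the plus strand for the others.
Krt79, chr15:101940325-101940574: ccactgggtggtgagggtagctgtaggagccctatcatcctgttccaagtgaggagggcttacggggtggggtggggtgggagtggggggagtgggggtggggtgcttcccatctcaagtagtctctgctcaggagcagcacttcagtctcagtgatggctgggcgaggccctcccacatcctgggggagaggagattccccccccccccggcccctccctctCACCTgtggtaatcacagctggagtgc
F7, chr8:13025784-13026033: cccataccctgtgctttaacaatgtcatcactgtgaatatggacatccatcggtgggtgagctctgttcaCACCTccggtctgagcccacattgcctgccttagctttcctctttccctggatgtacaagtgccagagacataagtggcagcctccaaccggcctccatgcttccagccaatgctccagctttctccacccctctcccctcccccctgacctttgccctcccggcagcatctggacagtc
Ffar4, chr19:38096829-38097078: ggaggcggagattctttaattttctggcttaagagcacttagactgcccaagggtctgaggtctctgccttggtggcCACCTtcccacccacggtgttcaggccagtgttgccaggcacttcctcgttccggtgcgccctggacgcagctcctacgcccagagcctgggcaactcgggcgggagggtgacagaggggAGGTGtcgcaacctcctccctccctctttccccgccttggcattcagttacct
Igflr1, chr7:30565177-30565426: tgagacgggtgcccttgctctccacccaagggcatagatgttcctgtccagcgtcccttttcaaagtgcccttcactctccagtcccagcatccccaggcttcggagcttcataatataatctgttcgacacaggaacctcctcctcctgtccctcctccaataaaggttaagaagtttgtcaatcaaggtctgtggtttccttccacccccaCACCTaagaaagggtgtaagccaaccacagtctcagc
Car4, chr11:84957504-84957753: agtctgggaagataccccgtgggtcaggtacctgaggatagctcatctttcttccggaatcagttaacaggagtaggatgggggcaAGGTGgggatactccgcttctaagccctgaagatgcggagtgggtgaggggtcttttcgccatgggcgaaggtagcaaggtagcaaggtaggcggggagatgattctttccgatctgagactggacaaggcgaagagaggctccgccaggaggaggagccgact
The table of promoters held 7 of the 10 genes in 9 windows, with 2 windows each for Spp1 and Bcar3. CACCT or AGGTG occurred in 8 of the 9 windows and in 46.0% of all 32851 windows of the same length. The longer E-box CACCTG or CAGGTG, which contains CACCT, occurred in 3 of the 9 windows (those of Krt79, Spp1 and Bcar3) and in 17.2% of all windows. In Krt79 it began 27 bases before the start. Genes that were lower and the gene that was higher in CD11b+ AMs both had the short motif, and these matches describe letters in a window and not binding.

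CRE- AMs were first compared with CRE- KCs. All 10 genes were higher in every CRE- AM sample than in every CRE- KC sample, which is how several of them were chosen, and so were 23.8% of the 12145 genes tested in that comparison. Per kilobase of exon, mean levels in CRE- AMs were 602 CPM per kb for Atp6v0d2, 485 for Spp1, 273 for Car4 and 256 for F7, then 91.0 for Ffar4, 86.9 for Krt79, 68.1 for Igflr1, 32.7 for Bcar3, 13.9 for Rab44 and 6.31 for Hr. The pump subunit and osteopontin were thus the most abundant of the 10 transcripts and Hr the least. Car4, Krt79, Rab44 and Ffar4 had no read in any of the 6 CRE- KC samples. Against a floor of 3 counts over the whole CRE- KC group, their mean CPM in CRE- AMs was at least 22180-fold, 17090-fold, 2906-fold and 5274-fold higher. The remaining 6 genes had between 9 and 147 counts over the 6 CRE- KC samples, with mean CPM ratios of 2555 for Atp6v0d2, 2446 for Spp1, 1013 for F7, 569 for Hr, 160 for Bcar3 and 112 for Igflr1. Over the 10 genes the median log2 ratio, with the 4 genes at their bound, was 11.29.

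**Figure D1:**
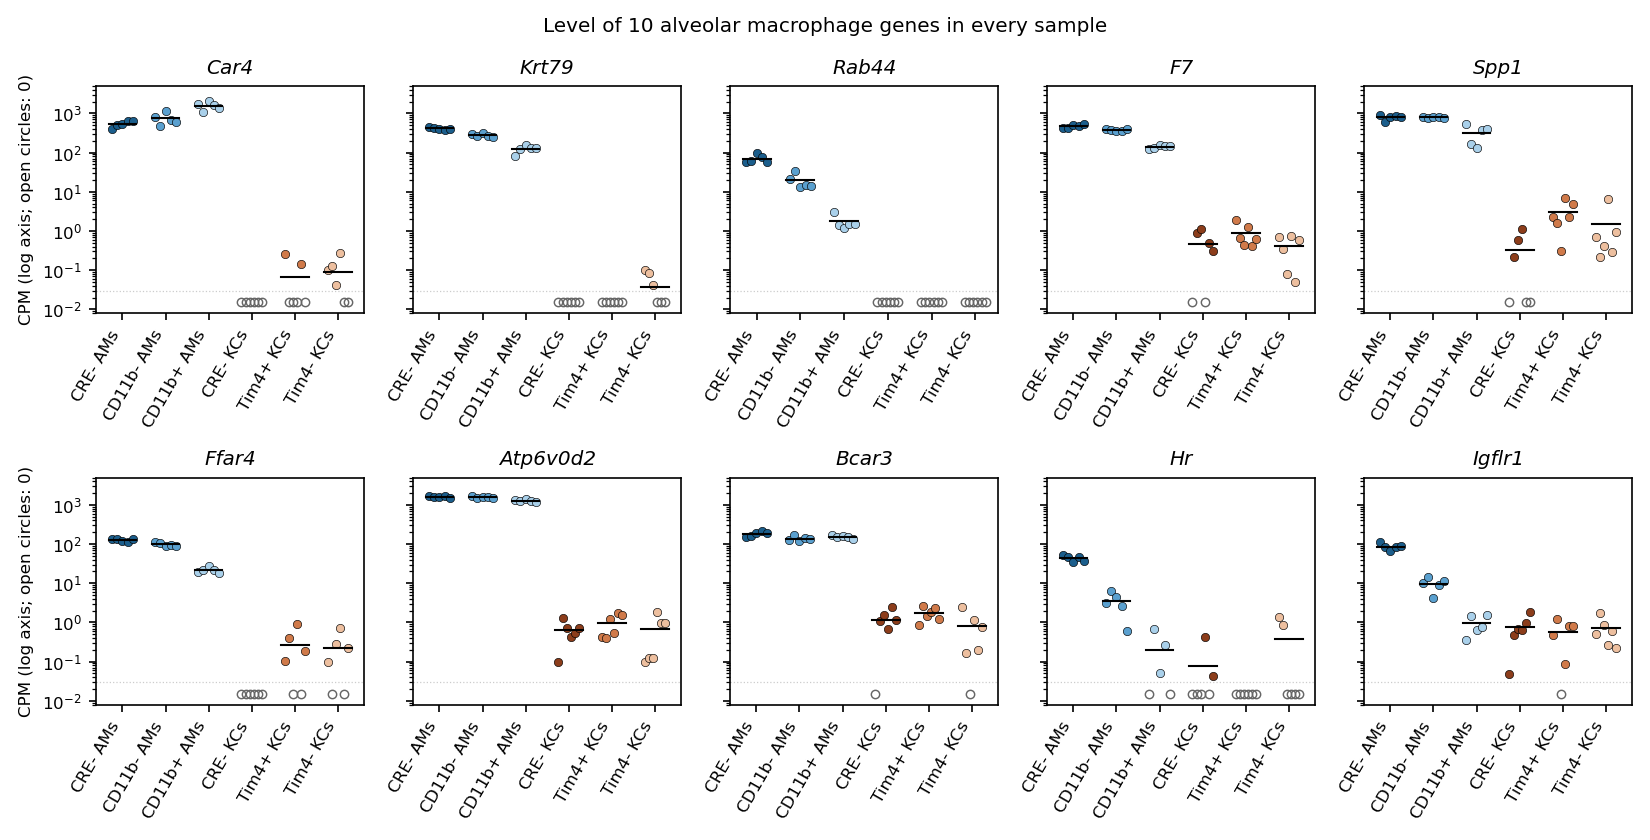
Each panel plots 1 gene, with CPM on a log axis and 1 point per sample in the 6 groups; horizontal bars are group means and open circles below the dotted line are samples with no read. Every AM panel lies far above the KC groups except for Hr and Igflr1, where CD11b+ AMs come down to the KC range (0 to 0.664 CPM and 0.366 to 1.52 CPM).

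Among AMs, the 10 genes fell into 4 patterns. Hr, Igflr1 and Rab44 were already much lower in CD11b- AMs and nearly absent from CD11b+ AMs, Ffar4, F7, Krt79 and Spp1 were lower mainly in CD11b+ AMs, Atp6v0d2 and Bcar3 kept most of their level, and Car4 was higher in CD11b+ AMs. CD11b- AMs against CRE- AMs is the comparison that the choice of genes did not use, although it shares the CRE- AM samples with one that it did. In it, 3 of the 10 genes were lower and none was higher by the rule used throughout (edgeR's quasi-likelihood test, adjusted p under 0.05 with a log2 fold change beyond 1 in either direction), against 2.51% of the 11573 genes tested that were lower and 3.98% that were higher. The median log2 fold change was -0.38 over the 10 genes and 0.0027 over all genes tested. Without the requirement on the size of the change, 7 of the 10 genes passed, all of them lower, while 12.4% of all genes tested passed as lower and 13.3% as higher.

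Hr, the hairless corepressor, changed the most. Its level in the 5 CRE- AM samples was 52.3, 46.8, 35.8, 47.4 and 36.1 CPM, in the 5 CD11b- AM samples 3.04, 6.46, 4.54, 2.66 and 0.596 CPM, and in the 5 CD11b+ AM samples 0, 0.664, 0.0525, 0.265 and 0 CPM. The 3 groups did not overlap except between the lowest CD11b- sample and the highest CD11b+ sample. Hr fell by 3.64 on the log2 scale in CD11b- AMs (SE 0.41, edgeR adjusted p = 1.88e-06), and CD11b- AMs held 7.92% and CD11b+ AMs 0.450% of the CRE- AM mean. Its 19 reads over the 5 CD11b+ AM samples put it in the range of CRE- KCs, where 9 reads were spread over 2 of 6 samples.

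Igflr1, the receptor of the TNF receptor family, followed the same order. It was at 112, 82.2, 65.5, 86.3 and 86.7 CPM in CRE- AMs, at 10.04, 14.4, 4.26, 8.97 and 11.4 CPM in CD11b- AMs and at 0.366, 1.48, 0.630, 0.743 and 1.52 CPM in CD11b+ AMs. No sample of one group reached another group. The change in CD11b- AMs was -3.14 (SE 0.25, edgeR adjusted p = 2.03e-08), and CD11b+ AMs kept 1.10% of the CRE- AM mean, a level that overlapped that of CRE- KCs (0.0492 to 1.86 CPM).

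Rab44, the large Rab GTPase, was at 57.4, 61.4, 96.5, 78.0 and 58.1 CPM in CRE- AMs, at 21.5, 32.9, 13.3, 15.3 and 14.3 CPM in CD11b- AMs and at 3.11, 1.38, 1.21, 1.54 and 1.52 CPM in CD11b+ AMs. The groups were again fully separate, and in CD11b- AMs Rab44 fell by 1.85 on the log2 scale (SE 0.24, edgeR adjusted p = 9.54e-06). CD11b- AMs held 27.7% and CD11b+ AMs 2.49% of the CRE- AM mean. Within CD11b- AMs, replicate 2 had the highest level of all 3 genes (6.46 CPM of Hr, 14.4 of Igflr1 and 32.9 of Rab44), with Zeb2 at 108 CPM. Replicate 3, which had the lowest Zeb2 level (85.0 CPM), had the lowest Igflr1 and Rab44 but not the lowest Hr (4.54 CPM). Hr was lowest in replicate 5 (0.596 CPM), where Zeb2 was at 106 CPM. Unlike Hr and Igflr1, Rab44 had no read in any of the 18 KC samples.

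Ffar4, F7, Krt79 and Spp1 formed the intermediate pattern. Ffar4, the fatty acid receptor, was at 114 to 136 CPM in CRE- AMs, at 90.5 to 114 CPM in CD11b- AMs and at 18.6 to 27.2 CPM in CD11b+ AMs. F7 was at 418 to 551, 346 to 408 and 122 to 158 CPM in the same 3 groups, and Krt79 at 381 to 462, 247 to 314 and 83.5 to 155 CPM. In CD11b- AMs all 3 genes passed the test but not the fold threshold, with log2 fold changes of -0.36 (SE 0.09, edgeR adjusted p = 0.00828) for Ffar4, -0.35 (SE 0.08, adjusted p = 0.00337) for F7 and -0.58 (SE 0.11, adjusted p = 0.000673) for Krt79. They thus kept 66.9% to 78.4% of the CRE- AM mean in CD11b- AMs, and 17.1% (Ffar4), 29.8% (F7) and 30.3% (Krt79) in CD11b+ AMs.

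Spp1, which encodes osteopontin, differed from these 3 genes in CD11b- AMs. It was at 908, 611, 829.1, 839 and 813 CPM in CRE- AMs and at 809, 765, 824, 806 and 780 CPM in CD11b- AMs, with a log2 fold change of -0.0056 (SE 0.26, edgeR adjusted p = 0.992). In CD11b+ AMs it was at 534, 168, 128, 374 and 409 CPM. All 5 CD11b+ AM samples were below all samples of the other AM groups, but they spread over a wide range, from 16.1% to 66.8% of the CRE- AM mean.

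Atp6v0d2 and Bcar3 kept between 75.6% and 94.8% of the CRE- AM mean in both CRE+ groups. Atp6v0d2, the proton pump subunit, was at 1504 to 1721 CPM in CRE- AMs, 1476 to 1678 CPM in CD11b- AMs and 1170 to 1381 CPM in CD11b+ AMs, and its change in CD11b- AMs did not pass the test (log2 fold change -0.08, SE 0.05, edgeR adjusted p = 0.322). CD11b+ AMs kept 78.3% of the CRE- AM mean, yet every one of their samples lay below every sample of the other AM groups. Bcar3, the p130Cas-binding adaptor, was at a mean of 138 ± 17.8 CPM in CD11b- AMs and 153 ± 10.5 CPM in CD11b+ AMs. The samples of these groups overlapped, and against CRE- AMs (183 ± 27.8 CPM) Bcar3 passed the test in CD11b- AMs below the fold threshold (-0.40, SE 0.10, edgeR adjusted p = 0.00526).

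Car4, the carbonic anhydrase, went the other way. It was at 401, 493.2, 523, 642 and 622 CPM in CRE- AMs, at 819, 477, 1173, 665 and 612 CPM in CD11b- AMs and at 1715, 1113, 2047, 1593 and 1402 CPM in CD11b+ AMs. Every CD11b+ AM sample was above every CRE- AM sample, with a mean of 294% of the CRE- AM mean. In CD11b- AMs the samples overlapped those of CRE- AMs and the change did not pass the test (log2 fold change 0.48, SE 0.19, edgeR adjusted p = 0.0740). In both CRE+ AM groups replicate 3 had the most Car4 and replicate 2 the least.

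As a description of the comparison that chose several of these genes, the fitted log2 fold changes of CD11b+ AMs against CRE- AMs were -7.69 for Hr, -6.51 for Igflr1, -5.35 for Rab44, -2.56 for Ffar4, -1.76 for F7, -1.74 for Krt79, -1.32 for Spp1, -0.37 for Atp6v0d2, -0.27 for Bcar3 and 1.54 for Car4. By the rule, 5.68% of the genes tested there were lower and 9.57% higher. From CD11b- AMs to CD11b+ AMs, 7 of the 10 genes were lower in every sample, as were 10.6% of the genes tested.

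**Figure D2:**
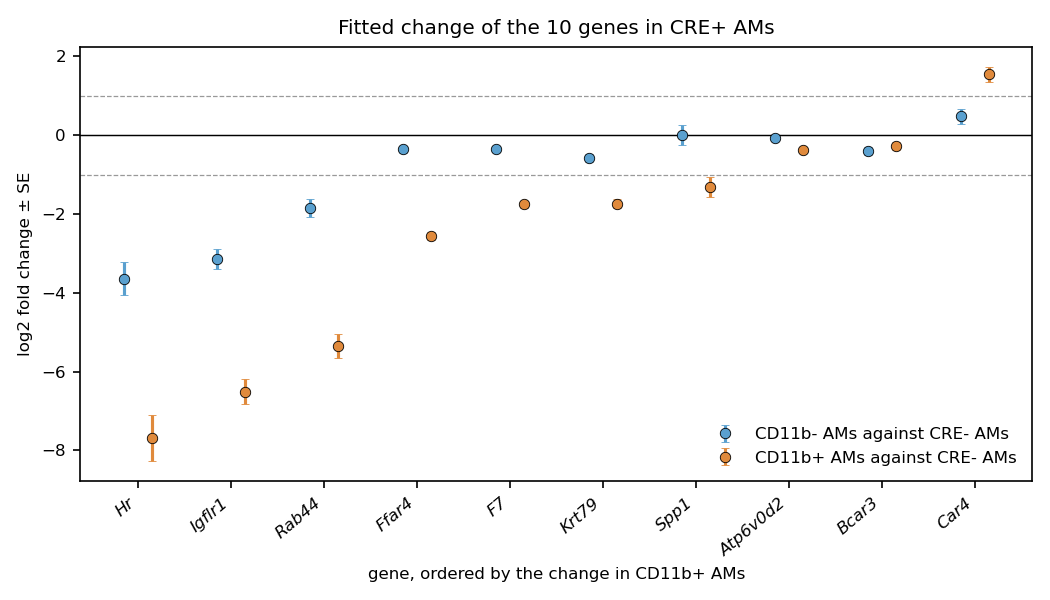
Fitted log2 fold change (vertical axis, ± SE from the edgeR fit of 15 AM samples) against CRE- AMs for each of the 10 genes, in CD11b- AMs (blue) and CD11b+ AMs (orange); dashed lines mark the fold threshold. Only Hr, Igflr1 and Rab44 lie below -1 in CD11b- AMs (-3.64, -3.14 and -1.85), and only Car4 lies above 0 in CD11b+ AMs (1.54).

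KCs were then examined for any appearance of these genes when Zeb2 was targeted. None of the 10 genes reached the level of CRE- AMs in CRE+ KCs. For Hr and Igflr1, CRE+ KC samples did overlap the low levels of CD11b+ AMs. Only F7, Spp1, Atp6v0d2, Bcar3 and Igflr1 passed the filter on low counts in the fit of the 18 KC samples, and 0 of these 5 passed the rule in Tim4+ KCs, in Tim4- KCs or between Tim4- and Tim4+ KCs, where 2.31%, 8.82% and 5.45% of the 12500 genes tested did. At an unadjusted p under 0.05, edgeR gave 1 gene (Spp1) against CRE- KCs in each of Tim4+ and Tim4- KCs and 0 between them. At the adjusted p and fold thresholds of the rule, DESeq2 called 1 gene (Spp1) in Tim4+ KCs and 0 in the others, and limma voom called 0 in all 3.

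Spp1 came closest. Its read counts were 0, 5, 13, 22, 0 and 0 in CRE- KCs, 45, 32, 7, 156, 48 and 105 in Tim4+ KCs and 7, 5, 10, 118, 6 and 21 in Tim4- KCs, so that it was detected in 3 of 6 CRE- and in all 12 CRE+ samples. Tim4+ KCs averaged 3.04 ± 2.41 CPM against 0.327 ± 0.464 CPM in CRE- KCs, and the ranges overlapped. The log2 fold change was 3.20 (SE 1.06) with an edgeR adjusted p of 0.0837 in Tim4+ KCs and 2.17 (SE 1.03) with an adjusted p of 0.133 in Tim4- KCs. The call in Tim4+ KCs turned on single choices: it passed with DESeq2 (adjusted p = 0.0157), in an edgeR fit of all 33 samples (adjusted p = 0.00780) and in edgeR without CRE- KC replicate 4, which had the 22 reads (adjusted p = 0.0414). Even in Tim4+ KCs, mean Spp1 was 263-fold below CRE- AMs. In Tim4- KCs, replicate 4 had 118 of the 167 reads of the group.

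Ffar4 had no read in CRE- KCs, 2, 8, 0, 21, 0 and 4 reads in Tim4+ KCs and 1, 0, 7, 13, 0 and 5 reads in Tim4- KCs. It was thus seen in 8 of 12 CRE+ KC samples, at 0.272 ± 0.360 and 0.219 ± 0.264 CPM. It did not pass the filter in the KC fit and so was not tested there. Replicate 4 had the most Ffar4 and the most Spp1 reads in both CRE+ KC groups.

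Car4, Krt79 and Hr were at the edge of detection in KCs. Car4 had 8 reads in 2 Tim4+ samples and 10 reads in 4 Tim4- samples, with at most 5 in a sample, and Krt79 had 4 reads in 3 Tim4- samples. Hr had 14 and 20 reads in Tim4- replicates 1 and 2, none in the other 4 and none in any Tim4+ sample. Chil3, the most abundant of the 25 other AM genes, had 0 to 20 reads per sample in CRE- KCs, 0 to 41 in Tim4+ KCs and 17 to 73 in Tim4- KCs. In Tim4+ KCs the samples with the most Ffar4 (replicate 4) and the most Car4 (replicate 1) had no Chil3 read, whereas in Tim4- KCs the sample with the most of both (replicate 4) had 64. Whether these low counts came from the sorted KCs or from carry-over between libraries was not tested. The lung epithelial transcripts Sftpb, Sftpa1, Scgb1a1 and Cldn18 had no read in any KC group, but other genes of that list did. The summed level of the 11 lung epithelial genes was 3.51 to 9.81 CPM in CRE- KCs, 8.55 to 28.5 in Tim4+ KCs and 25.5 to 73.5 in Tim4- KCs. In Tim4- KCs 7 of the 11 had no count, so the sum there came from the other 4. Among these 4 was Napsa, which rose in both CRE+ KC groups, so the sum does not stand for lung epithelial genes as a set.

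Atp6v0d2, Bcar3, F7 and Igflr1 were present at low level in CRE- KCs, and none of them passed in a KC comparison. Atp6v0d2 had 84 reads in CRE-, 127 in Tim4+ and 82 in Tim4- KCs. Bcar3 had 147, 220 and 72 reads in these groups, F7 had 62, 111 and 45, and Igflr1 had 101, 70 and 90. Between Tim4- and Tim4+ KCs the log2 fold change was -1.14 (SE 0.84, edgeR adjusted p = 0.428) for Bcar3 and -1.09 (SE 0.85, adjusted p = 0.457) for F7, so neither a change nor its absence was shown. All 4 genes had overlapping samples in each pair of KC groups. Igflr1, which lost most of its level in CRE+ AMs, was at 0.774 ± 0.606 CPM in CRE- KCs, 0.564 ± 0.468 in Tim4+ KCs and 0.704 ± 0.574 in Tim4- KCs.

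**Figure D3:**
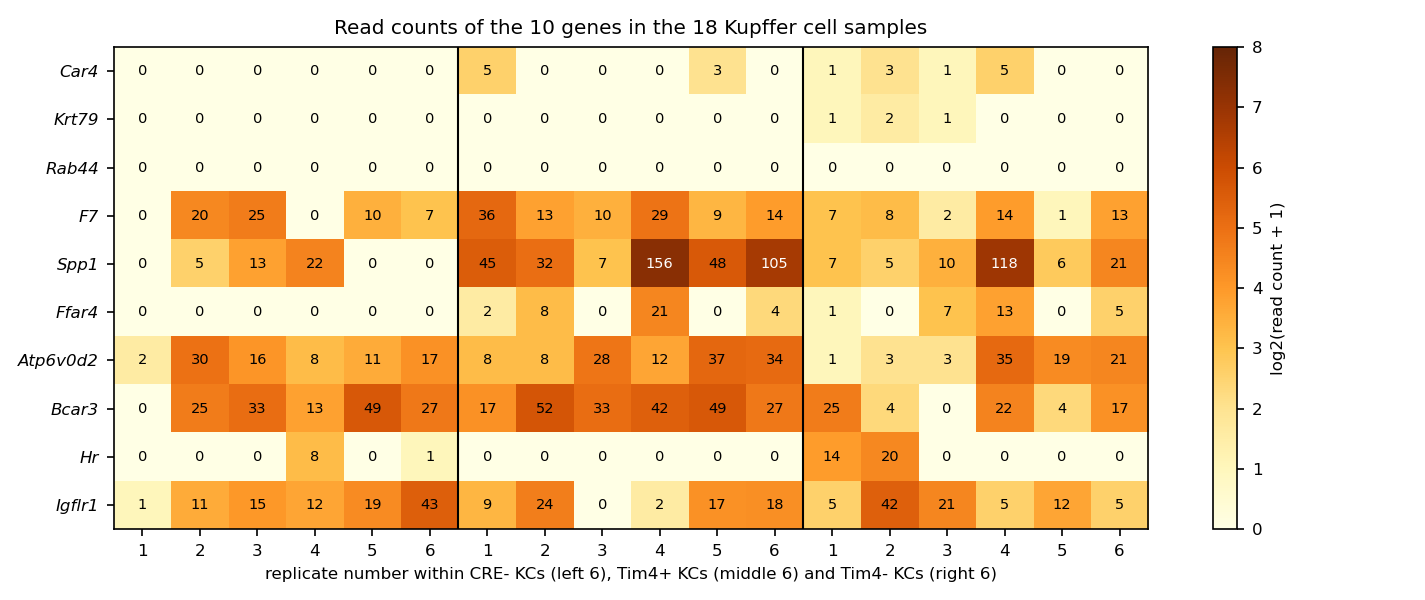
Read counts (numbers; colour: log2 of the count plus 1) of each gene in the 18 KC samples, with CRE- KCs at the left, Tim4+ KCs in the middle and Tim4- KCs at the right. Car4, Krt79, Rab44 and Ffar4 are at 0 throughout CRE- KCs, and Spp1 reaches its highest counts (156 and 118) in replicate 4 of both CRE+ groups.

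Whether the response differed between lung and liver was tested as a difference of changes in 1 fit of all samples. The change in Tim4+ KCs less that in CD11b- AMs passed the rule for 2 of the 5 genes that had also passed the filter in the KC fit, where 4.59% of 13294 genes did. The change in Tim4- KCs less that in CD11b- AMs passed for 1 of these 5 genes, where 7.42% did. Igflr1 passed in both, with a difference of 2.64 (SE 0.73, edgeR adjusted p = 0.0174) in Tim4+ KCs and 3.05 (SE 0.71, adjusted p = 0.00251) in Tim4- KCs. In the KC fit its log2 fold change was -0.48 (SE 0.80) in Tim4+ and -0.14 (SE 0.79) in Tim4- KCs. Its mean of 0.774 CPM in CRE- KCs was too near the floor to show a fall as large as that in CD11b- AMs. The difference also rests on CRE- AM samples that were used in choosing the genes. Spp1 passed against Tim4+ KCs (3.25, SE 0.94, adjusted p = 0.0234). Ffar4 in both and Hr in Tim4- KCs also passed, which made 3 of the 10 genes in each, but they entered the fit of all samples through their AM levels and had 0 and 9 reads in CRE- KCs, so they are not counted as differences here. Without Tim4+ KC replicate 2 the Igflr1 difference no longer passed (2.28, adjusted p = 0.0631), nor did that of Spp1 without Tim4+ KC replicate 4 (2.81, adjusted p = 0.0649), and limma voom called 0 of the 10 genes against Tim4+ KCs and 2 against Tim4- KCs (Igflr1 and Hr).

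The 25 other AM genes were read beside the 10, from a list of known AM genes assembled with earlier results of these data in view. In CD11b- AMs 3 rose and 2 fell: the zinc transporter Slc39a2 (1.38), the interleukin-1 antagonist Il1rn (1.14) and the scavenger receptor Marco (1.11) rose, and the ribonuclease Ear1 (-1.35) and the fatty acid-binding protein Fabp4 (-1.19) fell. In CD11b+ AMs 3 rose and 4 fell, with Ear1 at -5.18, Fabp4 at -2.43, Ear2 at -1.95, and Slc39a2 at 2.55. The median log2 fold change of the list was -0.10 and -0.09, over genes that went both ways. Chil3, a chitinase-like protein, averaged 42810 CPM in CD11b+ AMs against 24410 CPM in CRE- AMs.

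In KCs, 19 of the 25 genes were tested. In Tim4+ KCs 6 rose, where 1.94% of all genes tested rose: Siglecf, a sialic acid-binding receptor (5.20, SE 0.27, edgeR adjusted p = 1.7e-10), Itgax, which encodes CD11c (2.47), the tetraspanin Cd9 (2.22), Marco (1.39), the transcription factor Bhlhe40 (1.15) and Fabp4 (1.07). In Tim4- KCs 6 rose, where 3.43% of all genes rose, with Siglecf at 5.99, Chil3 at 3.43, Itgax at 3.39 and Bhlhe41 at 2.76, and Marco fell by 1.25 on the log2 scale. Siglecf went from 4.51 CPM in CRE- KCs to 168 and 290 CPM in Tim4+ and Tim4- KCs, against 532 CPM in CRE- AMs. Siglecf and Itgax, whose products were used to identify AMs by flow cytometry, were thus expressed by CRE+ KCs, whereas Rab44 was at 0 in the same samples and Krt79 and Car4 had no more than 5 reads in any of them. Against CRE- AMs, Siglecf was lower in CRE+ AMs, with log2 fold changes of -0.53 in CD11b- and -1.28 in CD11b+ AMs. Itgax was higher in both (0.48 and 0.84). Only the Siglecf change in CD11b+ AMs went beyond the fold threshold.

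Genes related to each of the 10 by family or role were read next. For Car4, none of the 7 other carbonic anhydrases tested in AMs passed the rule as higher. Car11 fell in CD11b- AMs (-4.59, SE 0.94, edgeR adjusted p = 0.0019) and Car5b, Car9 and Car11 were lower in CD11b+ AMs, though Car11 was low throughout, at 1.90 CPM in CRE- AMs, 0.0654 in CD11b- AMs and no read in CD11b+ AMs. Car11 also fell in Tim4+ KCs (-3.09) and Tim4- KCs (-3.74), from 2.97 CPM in CRE- KCs. The mitochondrial Car5b went from 21.6 CPM in CRE- AMs and 20.3 CPM in CD11b- AMs to 4.20 CPM in CD11b+ AMs. Car2 rose in Tim4- KCs (1.501), from 3.43 to 9.80 CPM. Car13 (2.84, 5.38 and 3.51 CPM in CRE-, CD11b- and CD11b+ AMs) and Car5a and Car7 (under 2.5 CPM in each AM group) passed in no comparison with the CRE- group, and Car1, Car3, Car6, Car8, Car10, Car12, Car14 and Car15 were under 0.31 CPM in every AM group.

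For Krt79, the contrast was with other keratins. Krt8 and Krt18, the paired keratins of simple epithelia, rose in CD11b- AMs (8.41, SE 0.40, edgeR adjusted p = 9.8e-12, and 3.505, SE 0.54, adjusted p = 7.6e-05). Krt8 averaged 0.164 CPM in CRE- AMs, 57.2 in CD11b- AMs and 563 in CD11b+ AMs, while Krt18 averaged 0.386, 4.62 and 52.5 CPM, so that in CD11b+ AMs Krt8 exceeded Krt79. Krt19, which is on the list of AM genes too, was at 1083, 1299 and 1062 CPM. Krt80 was higher in CD11b+ AMs (1.29) and in Tim4- KCs (1.56), and Krt10 was lower in Tim4- KCs (-1.51). Krt7 was at 0.283 to 0.821 CPM in AMs, and Krt5, Krt14, Krt15, Krt17, Krt20 and Krt23 were under 0.07 CPM in every group.

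For Atp6v0d2, none of the 17 other proton pump genes tested passed the rule in CD11b- AMs, and in CD11b+ AMs only Atp6v0a1 did (1.61). Smaller changes lay below the fold threshold. The summed level of the list was 5570 to 6035 CPM in CRE- AMs, 6346 to 6662 in CD11b- AMs and 7162 to 7567 in CD11b+ AMs. The Atp6v0d2 paralog Atp6v0d1 was at 287, 302 and 322 CPM in the 3 AM groups and at 127, 137 and 137 CPM in CRE-, Tim4+ and Tim4- KCs. Atp6v0d2 and Spp1 are also known from osteoclasts, the bone-resorbing relatives of macs. Of 11 other osteoclast genes tested, 4 rose in CD11b- AMs: Oscar, Ocstamp, Dcstamp and Ctsk, which encode an activating receptor, both fusion proteins and cathepsin K. Oscar had 1 read over the CRE- AM samples and averaged 10.5 ± 3.32 CPM in CD11b- AMs and 106 ± 11.3 CPM in CD11b+ AMs. Ocstamp had no read in CRE- AMs and 1.21 and 0.761 CPM in CD11b- and CD11b+ AMs, Dcstamp 0.0370, 0.424 and 5.74 CPM in the 3 groups, and Ctsk 462, 1209 and 1081 CPM, while Acp5, the tartrate-resistant acid phosphatase, was lower in CD11b+ AMs (-1.42). Ocstamp also rose in Tim4+ KCs (3.52) and Tim4- KCs (4.27), from 0.868 to 10.2 and 17.2 CPM. Osteoclast genes thus moved both up and down in AMs in which Spp1 was lower and Atp6v0d2 kept most of its level.

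For F7, 10 of 18 coagulation genes were tested in AMs. F9, which encodes factor IX, rose in CD11b- AMs (4.23, SE 0.32, edgeR adjusted p = 8.2e-09) from 1.196 to 23.0 CPM, reached 91.6 CPM in CD11b+ AMs, and also rose in Tim4+ KCs (2.79) and Tim4- KCs (3.19). Tfpi, the inhibitor of the factor VII pathway, fell in CD11b- AMs (-1.58) and was lower in CD11b+ AMs (-2.63). F10 and Pros1 were lower (-1.09 and -1.11) and F13a1, F2r and Thbd higher (6.84, 5.67 and 1.37) in CD11b+ AMs. Factor VII and factor IX transcripts therefore differed in opposite directions. For Ffar4, the medium-chain fatty acid receptor Gpr84 rose in CD11b- AMs (2.32), was at 30.2 CPM in CD11b+ AMs against 1.87 CPM in CRE- AMs, and rose in Tim4+ KCs (1.06) and Tim4- KCs (1.60). The short-chain receptor Ffar2 was lower in CD11b+ AMs (-2.38), at 2.78 CPM against 14.4 CPM.

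For Spp1, the integrin subunit Itga4 fell in CD11b- AMs (-1.08) and Itga9 rose from no read to a mean of 0.273 CPM, and Cd44 was at 1662, 1378 and 1134 CPM in the 3 AM groups. For Rab44, Rasef, another large Rab protein, rose in CD11b- AMs, where it averaged 5.28 ± 1.64 CPM, against no read in CRE- AMs or in any KC sample and 0.888 ± 0.951 CPM in CD11b+ AMs, while Rab27a rose in Tim4+ KCs (2.05) and Tim4- KCs (2.38) and Rab37 in Tim4- KCs (2.25). For Bcar3, the adaptor Cass4 rose in CD11b- AMs (2.07), from 0.221 to 0.953 CPM. For Hr, the vitamin D receptor Vdr, a known partner of hairless, fell in CD11b- AMs (-1.003, SE 0.24, edgeR adjusted p = 0.0038) and was lower in CD11b+ AMs (-3.27), and the thyroid hormone receptor Thrb rose in CD11b- AMs (2.52), from 0.241 to 1.41 CPM. Of the 10 tested genes of that list, Vdr and Thrb were the 2 that passed, and in KCs none of 11 did.

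**Figure D4:**
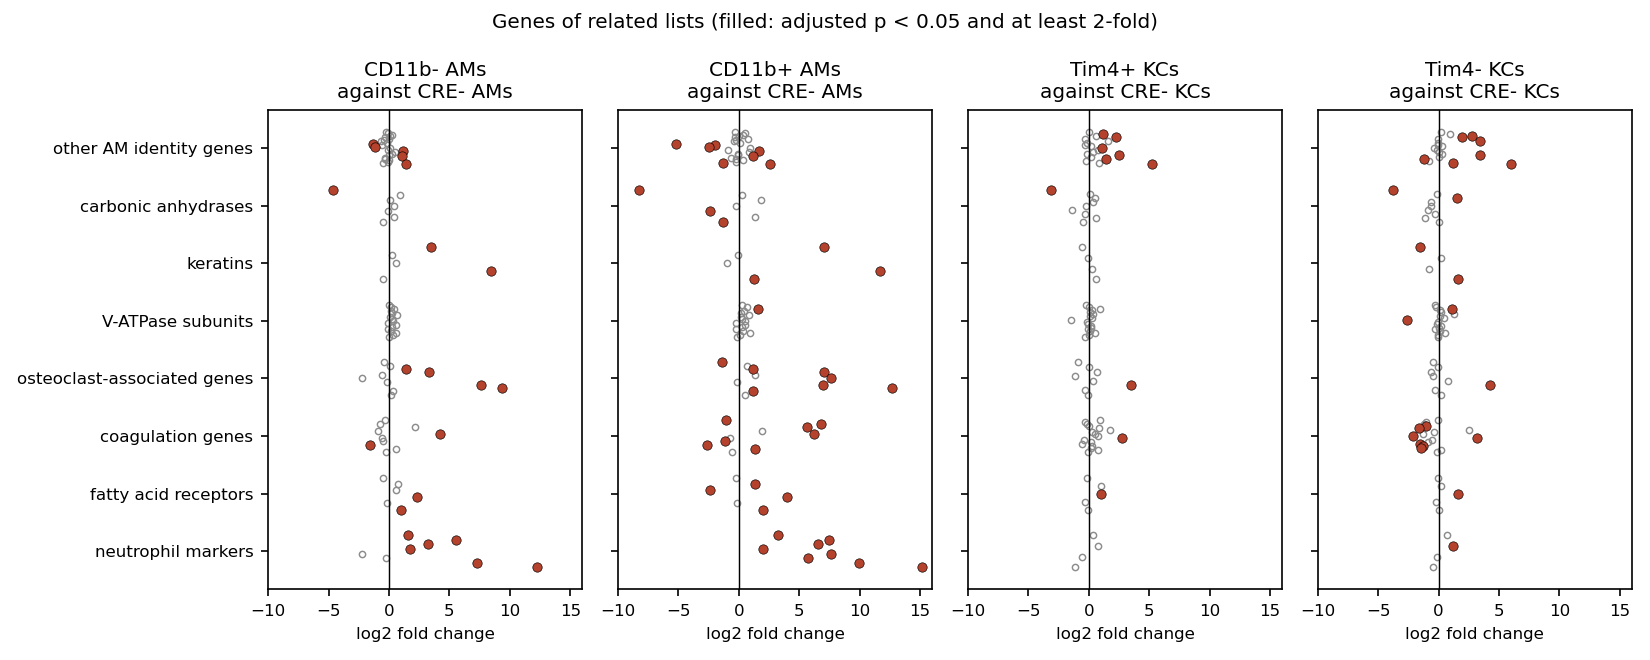
Fitted log2 fold changes (horizontal axis) of the genes of 8 lists in CD11b- AMs, CD11b+ AMs, Tim4+ KCs and Tim4- KCs, each against its CRE- group; 1 circle per gene tested, filled where it passed the rule, with the 10 genes themselves left out. The filled keratins at the right in AMs are Krt8 and Krt18 (8.41 and 3.505 in CD11b- AMs), and the filled carbonic anhydrase at the left in every panel is Car11.

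Markers of other cells moved with the AM groups. In bulk RNA, fewer cells expressing a gene and less RNA per cell cannot be told apart. The summed level of 10 neutrophil-associated genes was 92.0 to 118 CPM in CRE- AMs, 1027 to 2650 in CD11b- AMs and 8392 to 10760 in CD11b+ AMs, of which S100a8 and S100a9 averaged 4464 and 3683 CPM in CD11b+ AMs. Of the 8 tested, 6 rose in CD11b- AMs and 8 were higher in CD11b+ AMs, whereas the granule genes Ngp and Camp were at 3.34 and 0.779 CPM in CD11b+ AMs and had no count in CD11b- AMs. Monocyte markers summed to 1799 to 2464 CPM in CRE- AMs, 648 to 1108 in CD11b- AMs and 1129 to 1591 in CD11b+ AMs, with Vcan at 0 in both CRE+ groups. The 10 pan-macrophage genes were at 31710 to 37170, 32380 to 35900 and 35020 to 42440 CPM, and none passed in CD11b- AMs. Their part in the lower levels of Hr, Igflr1 and Rab44 was not tested.

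In KCs, hepatocyte markers summed to 185 to 565 CPM in CRE-, 157 to 490 in Tim4+ and 93.7 to 257 in Tim4- samples, and monocyte markers to 194 to 345, 185 to 508 and 385 to 940 CPM. Of 8 monocyte markers, 6 were tested, and Ccr2 and Cx3cr1 rose in both CRE+ KC groups. Liver endothelial markers fell in Tim4- KCs for 8 of 10 genes. Their part in the counts of the 10 genes was not tested. B cell, T cell, dendritic cell and lung endothelial lists passed for at most 4 genes each in any of these comparisons, among them Ms4a1, which encodes CD20, in all 4 of them. Cholangiocyte markers were not tested in KCs and passed for 1 gene in AMs, Epcam. Of lung epithelial markers, Hopx rose and Napsa fell in CD11b- AMs, and Napsa rose in both CRE+ KC groups.

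Over all 33 samples, the genes whose log2 CPM followed each of the 10 most closely were named by Pearson's r among 11531 genes with a mean of at least 1 CPM. These values share the AM and KC groups, whose difference sets most of each r, and are a description. Vstm2a and Slc9a4 followed Krt79 (both r = 0.994), Chil4 and Lmo4 followed Car4 (both 0.989), Lta4h and Lipf followed Rab44 (0.991 and 0.989) and Plin2 and Abcg1 followed Atp6v0d2 (0.989 and 0.986). Spp1 was closest to Phlda3 (0.971) and Cd9 (0.968), F7 to Gmcl1 (0.971) and Net1 (0.969), Ffar4 to Mapkapk3 (0.969) and Cd9 (0.966), and Bcar3 to Ndel1 (0.955) and Mgst1 (0.953). Hr and Igflr1 shared Hivep3 (0.898 and 0.913), with Hsd3b7 (0.902) first for Hr and Ado (0.893) second for Igflr1. Lipf, a lipase gene, repeated the loss of Rab44 in CD11b+ AMs but not in CD11b- AMs, at 29.5, 32.9 and 1.76 CPM in CRE-, CD11b- and CD11b+ AMs. Hivep3 was at 68.2, 29.3 and 11.0 CPM in these groups, a step at each sort as for Hr and Igflr1.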

How the data were processed

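Sorted AMs and KCs were profiled by bulk RNA-seq in 33 samples, grouped by their labels. Per the study's methods and the submitters' processing notes, the authors trimmed reads with Trimmomatic 0.35, checked them with FastQC 0.11.4, mapped them to mm10 with TopHat2 2.1.0 (SAMtools 0.1.18), assigned them to genes by HTSeq-count and deposited the raw read counts per gene symbol. The annotation and the handling of strand are not given in the sources used here. Tally rows without a gene, 5.88% to 10.1% of reads, were left out.

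The 10 genes and all gene lists were chosen with earlier results of these data known. The counts were tested in R 4.3.3 with edgeR 4.0.16 (TMM, filterByExpr, quasi-likelihood test, Benjamini-Hochberg adjustment over all genes tested), in fits of 15 AM samples, 18 KC samples, 11 CRE- samples or, for differences of changes, all 33. A gene passed at an adjusted p under 0.05 with a log2 fold change beyond 1 in either direction. No test was made of the 10 genes in comparisons that chose them. Nothing in the labels says that replicates are separate mice, so p-values measure the spread between these samples. A count of 3 was taken as the floor, 0.123 to 0.305 CPM per sample, for counting error only. Replicate numbers paired Tim4- with Tim4+ KCs, where all 6 pairs of deviations from the group means correlated at 0.134 to 0.278, and did not meet that criterion in the other comparisons. No pair of replicates was identical.

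On simulated counts edgeR recovered 84% of 3-fold and 89% of 6-fold changes with 1 false call for CD11b- AMs against CRE- AMs (11411 genes), and 80% and 94% with 3 false calls for Tim4+ KCs (12294 genes). Alternatives were limma voom 3.58.1, DESeq2 1.42.0, RLE factors, other filters, no fold threshold, other samples in the fit, the replicate block and samples left out. KC replicates 5 and 6, which had no Xist reads in any group, were left out in one. Named were all 10 genes, Zeb2, the 2 closest genes for each, the related carbonic anhydrases and keratins, and from each list up to 4 genes with the largest change that passed, plus small counts. List genes were named for context where they did not pass, after their values were seen. Gene positions and exon lengths came from GENCODE M21 (GRCm38), where 95.5% of symbols matched 1 gene, and promoters from RefSeq. Tables and plots were made with Python, pandas and matplotlib.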

Additional observations from a re-analysis of the deposited data

Results flagged for a closer look

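Of 52 sets of samples of 1 gene in 1 group that had enough reads, 3 had a sample far from the others by Dixon's criterion, where chance gives about 1 in 20. Rab44 in CD11b+ AM replicate 1 was at 3.109 CPM (51 reads) against 1.21 to 1.54 CPM in the other 4. Spp1 in Tim4- KC replicate 4 was at 6.374 CPM (118 reads) against 0.212 to 0.961 CPM, and Hr in CRE- KC replicate 4 was at 0.4176 CPM (8 reads) against 0 to 0.0432 CPM.

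The change in CRE+ KCs differed from that in CD11b- AMs by edgeR's test of the difference for 3 genes in each of Tim4+ and Tim4- KCs. Against Tim4+ KCs the log2 difference was 3.255 for Spp1, 5.866 for Ffar4 and 2.64 for Igflr1. Against Tim4- KCs it was 5.559 for Ffar4, 5.668 for Hr and 3.046 for Igflr1. Ffar4 had no read in CRE- KCs and Hr had reads in 2 of 6 Tim4- KC samples, and both entered that fit through their AM levels, so these values are no support for a difference. Igflr1 fell in CD11b- AMs and did not pass in KCs, and Spp1 did not pass in CD11b- AMs or in KCs.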

How the results depend on the processing

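In CD11b- AMs against CRE- AMs, the count of 3 genes that passed stayed at 3 when any replicate was left out. It became 1 of 8 tested when at least 10 counts were required in every sample, a filter that removes Hr and Igflr1 because they fell, and 7 without the fold threshold. The Spp1 value near 0 changed sign there with limma voom (0.0039), no filter (0.0017), the replicate block (0.022) and all 33 samples (0.0025), and ranged from -0.081 to 0.044 over the samples left out. In Tim4+ KCs the count of 0 became 1 with DESeq2, 1 with the replicate block (Spp1, adjusted p = 0.0296) and 2 with all 33 samples, and was 0 to 1 with a sample left out. In Tim4- KCs it became 1 without a filter and 1 with all 33 samples, and between Tim4- and Tim4+ KCs 1 with all 33 samples, each 0 to 0 with a sample left out. The genes other than Spp1 behind these KC calls were Ffar4, which had no read in CRE- KCs, and Hr, which had none in Tim4+ KCs. Both entered through a laxer filter or their AM levels, so these calls are no support for a change. The cause was not tested. With KC replicates 1 to 4 only, 0 genes passed in each KC comparison. For the difference of changes, Tim4+ KCs gave 0 with limma voom and 2 to 3 with a sample left out, and Tim4- KCs 3 to 4. The median log2 fold changes described were within 1 replicate SD under every alternative. The filter of 10 counts left none of the 10 genes in the fits of KCs or of all samples, so it gave no value there.

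The replicate block changed no other call. For CD11b- AMs against CRE- AMs, 0 of 5 same-numbered pairs correlated above 0.1, for CRE- AMs against CRE- KCs 0 of 5, for CD11b+ AMs against CRE- AMs 1 of 5, and for Tim4+ and Tim4- KCs against CRE- KCs 3 and 1 of 6. KC replicates 5 and 6 had no Xist reads in any of the 3 KC groups, so a number goes with sex there. For CD11b+ against CD11b- AMs, 3 of 5 pairs were above 0.1 (0.0669 to 0.110) and all 5 samples correlated best with their own number, a hint from the data and not the design. That comparison was described without a test, so no block was fitted. Depth limits the KC values: 3 reads are 0.123 to 0.305 CPM, and 5 of the 10 genes could not be tested in KCs.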
